A study of Mus musculus with 8 samples.

Results

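Primary fibroblasts of wild-type mouse lung, grown in serum-supplemented medium, were given recombinant TWEAK at 30 ng/ml for 48 hours and compared by RNA sequencing with untreated cells of the same 48 hours. The comparison covered every row of the count table with a gene symbol, 52110 in all, of which 17360 had enough counts to be tested. It held 4 of the 8 libraries, 2 with 30 ng/ml TWEAK and 2 untreated. The remaining 4 libraries, from wild-type cells with 10 and with 100 ng/ml TWEAK, entered the same fit and a comparison between doses. Doses are given as labelled throughout.

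TWEAK, encoded by Tnfsf12, is a cytokine of the tumour necrosis factor (TNF) family that acts through 1 receptor, Fn14, encoded by Tnfrsf12a. Fn14 carries no death domain and recruits TRAF adaptors and cIAP ubiquitin ligases, and it activates both the canonical NF-kB route (p65 and p50) and the noncanonical route, in which the p100 product of Nfkb2 is processed and acts with RelB. In fibroblasts and other stromal cells TWEAK is known for inducing chemokines, adhesion molecules and matrix-degrading enzymes, and for proliferation and tissue remodelling after injury.

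The untreated libraries held 50896445 and 50560049 counts and those at 30 ng/ml 45182724 and 42128760. CPM are counts scaled to a library total of 1000000, with that total adjusted by the TMM factor of the library. In these 4 libraries 3 counts correspond to between 0.0599 and 0.0708 CPM. Levels are CPM of single libraries, untreated replicates 1 and 2 first. Log2 changes are from edgeR, with a standard error after the ± sign. Both libraries of each group differed from one another beyond sampling noise, and none were merged. Whether they stem from separate cultures or mice is not in the labels, and the spread behind each p-value may therefore be technical. The defining fibroblast genes were abundant in all 4 libraries, with 33842 and 32659 CPM summed over 12 genes in untreated cells and 18889 and 21796 CPM at 30 ng/ml. Genes encoding the leukocyte antigen Ptprc (at most 0.472 CPM) and the macrophage receptor Adgre1 (at most 0.34 CPM) were near 0. Other macrophage markers were not. The 9 tested, among them Cd14 and Cd68, summed to 38.01 and 34.1 CPM untreated and 68.2 and 55.3 CPM at 30 ng/ml. In bulk RNA, fewer cells of a type and less RNA per cell cannot be told apart.

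At 30 ng/ml, 4041 of the 17360 genes tested differed from untreated cells (23.3%, edgeR adjusted p under 0.05), 2179 higher (12.6%) and 1862 lower (10.7%). Of these, 844 rose and 597 fell at least 2-fold, 371 and 179 at least 4-fold, and 211 and 55 at least 8-fold. The median log2 change over all genes tested was 0.0059. Genes called higher made up 15.7% of the counts in each untreated library and 25.1% and 24.1% at 30 ng/ml. Genes called lower summed to 28.2% and 27.7% untreated and to 16.5% and 17.6% at 30 ng/ml. The counts of calls fell when 1 library was left out, to 2557 without untreated replicate 1, 2685 without untreated replicate 2, 2653 without TWEAK30 replicate 1 and 3141 without TWEAK30 replicate 2. Among protein-coding genes 27.3% were called, among long noncoding RNAs 6.89% and among pseudogenes 6.39%.

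**Figure D1:**
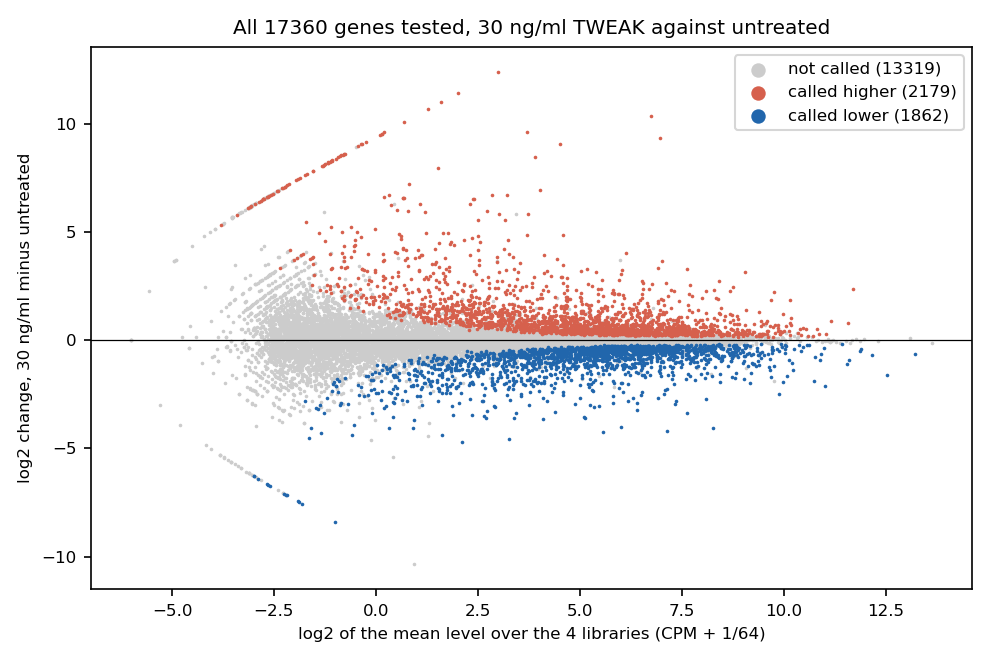
Log2 change between 30 ng/ml TWEAK and untreated cells (vertical axis) against the log2 mean level over the 4 libraries (horizontal axis), with 1 point per gene tested and colours for the edgeR call at an adjusted p under 0.05. The 2179 genes called higher reach larger changes than the 1862 called lower, and the straight lines of points at the left are genes with 0 counts in 1 group.

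The largest rises were those of genes almost silent in untreated cells. Mmp9, a gelatinase that cleaves matrix and basement membrane, went from 0.1797 and 0.1404 CPM untreated to 246 and 182 CPM at 30 ng/ml (log2 change 10.36 ± 0.24, edgeR adjusted p = 1.37e-06). Spib, a B cell transcription factor of the Ets family, rose from 0.1997 and 0.562 to 276 and 222 CPM (log2 change 9.34 ± 0.30, edgeR adjusted p = 3.64e-06). Both genes stood below 1 CPM without TWEAK and far above it in both treated libraries. Myh15, a myosin heavy chain gene, had 0 counts in both untreated libraries and 17.7 and 13.9 CPM at 30 ng/ml, at least 529-fold higher against a floor of 3 counts over the untreated group (edgeR adjusted p = 2.41e-05). Traf1, an adaptor of TNF receptors, had 3 untreated counts and 28.98 and 23.04 CPM at 30 ng/ml, a ratio of 869.7 times, with a 95% counting interval from 297 to 4221 (edgeR adjusted p = 1.71e-05). Madcam1, the vascular addressin that binds lymphocyte integrins, stood at 0.1598 and 0 CPM untreated and 52.1 and 38.4 CPM at 30 ng/ml.

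Among the remaining leading rises were the chemokine Ccl5 (from 0.2596 and 0.261 to 40.6 and 23.9 CPM) and the common cytokine receptor gamma chain Il2rg (from 0.379 and 0.522 to 30.96 and 20.8 CPM). The beta chain Csf2rb of the receptors for GM-CSF and interleukin 3 rose from 0.499 and 0.221 to 21.5 and 13.4 CPM and the adhesion protein Flrt3 from 1.66 and 1.504 to 54.7 and 38.8 CPM. In each of these the groups did not overlap, as the rule for leading genes required. Groups without overlap in CPM were found upward in 32.4% of all genes tested and downward in 30.9%. Bst1, an ectoenzyme also known as CD157, stood at 42.7 and 16.95 CPM at 30 ng/ml and the amino acid oxidase Il4i1 at 18.98 and 9.42 CPM, in both cases with replicate 1 at over 2 times replicate 2. The collagen-tailed acetylcholinesterase subunit Colq (log2 change 6.73 ± 0.88), the zinc importer Slc39a4 (6.52 ± 0.68), the uridine phosphorylase Upp1 (5.57 ± 0.74) and the cadherin-related gene Cdhr1 (4.87 ± 0.35) complete the 15. Where few untreated counts carried the fit it moved with single libraries. Without untreated replicate 1 the log2 change was 13.91 for Madcam1 (9.09 with all libraries), 12.61 for Colq, 11.78 for Slc39a4 and 11.87 for Upp1. Without untreated replicate 2 it was 13.31 for Bst1 (8.49).

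The 15 largest falls were of genes with varied roles. Aspn, a small leucine-rich proteoglycan that binds collagen, went from 18.7 and 18.1 CPM untreated to 0.749 and 0.826 CPM at 30 ng/ml (log2 change -4.55 ± 0.19, edgeR adjusted p = 6.97e-06), and the related Ogn from 575 and 592 to 27.6 and 41.998 CPM (log2 change -4.07 ± 0.21, edgeR adjusted p = 1.62e-05). Lrp4, a receptor that tunes Wnt signalling, fell from 120.0 and 120.2 to 5.53 and 9.28 CPM (log2 change -4.02 ± 0.23, edgeR adjusted p = 2.41e-05). In these genes both untreated libraries lay close together and both treated libraries far below them. St8sia2, a polysialyltransferase, fell from 91.3 and 86.9 to 2.598 and 6.92 CPM, the carboxylesterase Ces1g from 31.6 and 31.4 to 1.52 and 3.52 CPM and Gucy1a3, a subunit of the nitric oxide receptor guanylate cyclase, from 58.2 and 69.8 to 4.16 and 6.33 CPM. Ptn (pleiotrophin), Plagl1 (an imprinted zinc-finger factor), Clec3b (tetranectin), Acss3, the complement component C7, the selenium-binding Selenbp1, Syn2 and Nrep had log2 changes between -3.60 ± 0.28 (Ptn) and -3.30 ± 0.36 (Nrep). The protocadherin Pcdhgb1 stood at 402 and 128 CPM in the 2 untreated libraries and 13.7 and 15.1 CPM at 30 ng/ml (log2 change -4.20 ± 0.73, edgeR adjusted p = 0.004596), so that untreated replicate 1 stood far above replicate 2 and both above the treated libraries.

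**Figure D2:**
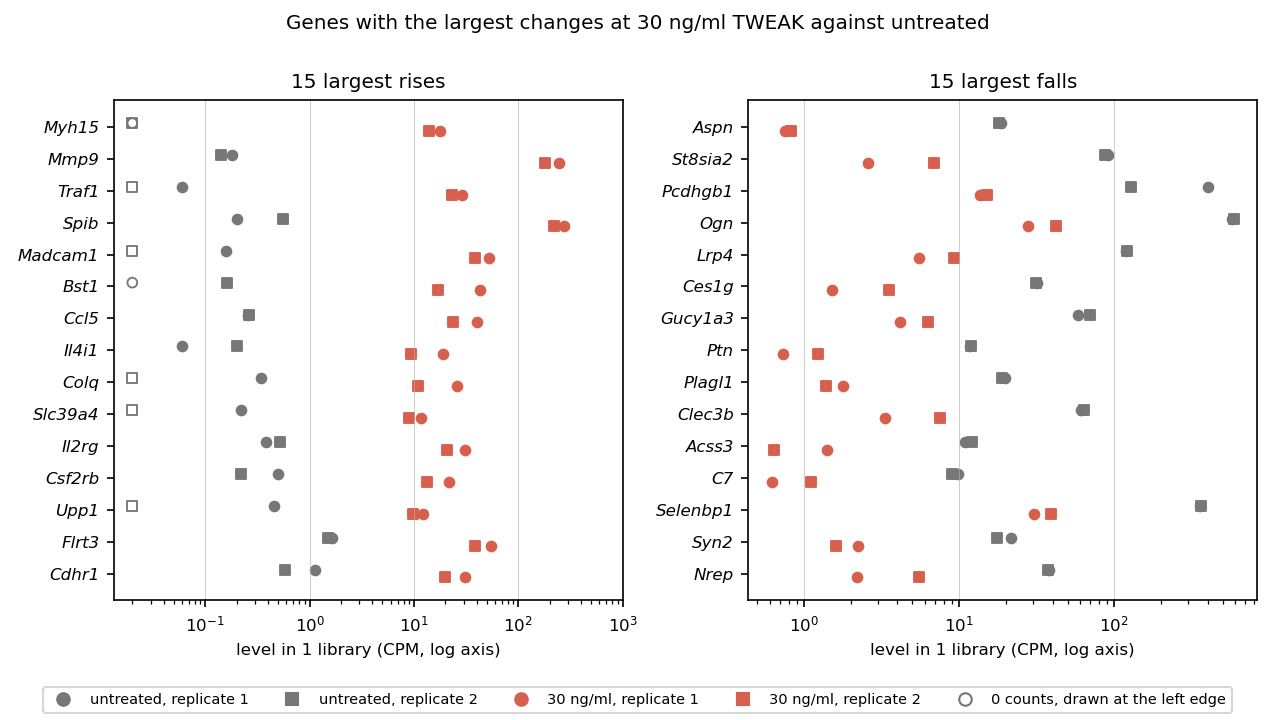
Level in each library (CPM, log axis) of the 15 genes with the largest rises and the 15 with the largest falls at 30 ng/ml (red) against untreated cells (grey), with circles for replicate 1, squares for replicate 2 and open symbols at the left edge for 0 counts. The 30 genes were chosen for groups that do not overlap, and Bst1, Colq, St8sia2 and Pcdhgb1 are among those with wide gaps within a pair of libraries.

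By absolute change in CPM, the largest gain was that of C3, the central complement protein, from 1048 and 1100.2 to 5881 and 5157 CPM (log2 change 2.36 ± 0.09, edgeR adjusted p = 5.43e-06). Next came the BMP antagonist Grem1 (from 2274 and 2204 to 4095 and 3666 CPM), the ferritin heavy chain Fth1 (from 1849 and 1321 to 2955 and 2911 CPM) and the latent TGF-beta binding protein Ltbp2 (from 484 and 483 to 1812 and 1737 CPM). They were followed by the phagocytic bridging protein Mfge8 (from 308 and 298 to 1605 and 1219 CPM), the heparan sulfatase Sulf1 (from 358 and 361 to 1436 and 1156 CPM), the monocyte chemokine Ccl2 (from 91.5 and 118 to 1081 and 807 CPM) and the peroxide reductase Prdx1 (from 593 and 616 to 1381 and 1441 CPM). The call on Fth1 was lost without untreated replicate 2 (edgeR adjusted p = 0.0535), and the untreated libraries lay apart. The largest losses were those of Col3a1 (from 8952 and 8867 to 2438 and 3377 CPM), Fn1 (from 11992 and 11110.2 to 6680.2 and 8308 CPM), the actin-severing protein Gsn (from 3565 and 3157 to 706 and 858 CPM) and the calcification inhibitor Mgp (from 5342 and 6025 to 3255 and 3777 CPM). Then came Col1a1 (from 4128 and 4049 to 1761 and 2115 CPM), Sparcl1 (from 2676 and 2715 to 645 and 813 CPM), Sparc (from 4083 and 4007 to 2136 and 2222 CPM) and the metalloproteinase inhibitor Timp3 (from 1609 and 1558 to 265 and 309 CPM). Apart from Gsn these encode secreted matrix proteins, and in every one TWEAK30 replicate 1 was the lower of the 2 treated libraries.

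The receptor of TWEAK was itself higher with TWEAK. Tnfrsf12a (chromosome 17 from 23675445 to 23677468, GRCm38) went from 18.6 and 19.7 CPM untreated to 29.02 and 40.04 CPM at 30 ng/ml (log2 change 0.85 ± 0.15, edgeR adjusted p = 0.00422). Tnfsf12 (chromosome 11 from 69686250 to 69695849) stood at 33.4 and 33.6 CPM untreated and 23.7 and 27.1 CPM at 30 ng/ml (log2 change -0.40 ± 0.11, edgeR adjusted p = 0.0315). That call did not hold without untreated replicate 1 (adjusted p = 0.114), without untreated replicate 2 (0.118) and without TWEAK30 replicate 1 (0.1699).

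The wider TNF receptor family moved mostly up and the ligands both ways, where 12.6% of all genes tested rose and 10.7% fell. Among 22 receptors tested, 11 rose and 2 fell, with a median log2 change of 0.83. Tnfrsf9, the costimulatory receptor 4-1BB, went from 2.96 and 3.39 CPM untreated to 18.1 and 17.6 CPM at 30 ng/ml (log2 change 2.49 ± 0.19, edgeR adjusted p = 7.52e-05), and Tnfrsf10b, the mouse TRAIL death receptor, from 37.8 and 42.9 to 100.5 and 93.5 CPM (log2 change 1.27 ± 0.08, edgeR adjusted p = 4.27e-05). Ngfr, the p75 neurotrophin receptor, had 3 untreated counts and 3.94 and 2.29 CPM at 30 ng/ml, a ratio of 105 times, with a 95% counting interval from 35.5 to 511. Tnfrsf1b, the second TNF receptor, rose from 143 and 143 to 224 and 208 CPM. The lymphotoxin receptor Ltbr fell from 201 and 186 to 152 and 146 CPM and Tnfrsf1a from 338 and 317 to 261 and 279 CPM. Tnfrsf1a was not called without untreated replicate 1 (adjusted p = 0.131) or TWEAK30 replicate 1 (0.117). Of 11 ligands 3 rose and 3 fell, and without untreated replicate 2 or TWEAK30 replicate 1 only 1 rose. Tnfsf11, the osteoclast cytokine RANKL, rose from 3.28 and 3.97 to 21.9 and 18.2 CPM (log2 change 2.47 ± 0.20, edgeR adjusted p = 0.000109), Tnfsf15 fell from 10.7 and 13.8 to 2.27 and 3.12 CPM and Tnfsf8 from 6.43 and 8.28 to 2.84 and 2.93 CPM.

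NF-kB genes were higher in both routes. Of the 5 NF-kB subunits 4 rose (median log2 change 0.49), the 2 of the noncanonical route by more than the rest. Nfkb2 (chromosome 19 from 46304320 to 46312385) rose from 61.5 and 59.3 to 366 and 337 CPM (log2 change 2.54 ± 0.07, edgeR adjusted p = 2.01e-06) and Relb from 17.6 and 17.97 to 58.04 and 52.2 CPM (log2 change 1.63 ± 0.12, edgeR adjusted p = 6.88e-05). Nfkb1 rose from 101 and 94.1 to 145 and 129.8 CPM and Rela from 74.2 and 81.4 to 95.5 and 109.8 CPM. The call on Rela was lost without any 1 of the 4 libraries compared or either 10 ng/ml library, with adjusted p-values up to 0.209. Among 14 inhibitors and feedback genes 9 rose and 1 fell (median 0.76). Nfkbie, an inhibitor of the IkB family, rose from 6.43 and 6.84 to 73.9 and 57.1 CPM (log2 change 3.30 ± 0.15, edgeR adjusted p = 1.04e-05) and the classical inhibitor Nfkbia from 29.04 and 30.9 to 173 and 139.7 CPM (log2 change 2.38 ± 0.13, edgeR adjusted p = 1.65e-05). The ubiquitin editor Tnfaip3 (A20) rose from 6.11 and 6.56 to 24.8 and 37.2 CPM and its partner Tnip1 from 54.7 and 56.03 to 258 and 201 CPM. Nfkbiz, an atypical family member, fell from 111 and 124 to 77.3 and 76.98 CPM. That gene was not called without untreated replicate 2 (adjusted p = 0.0806), TWEAK30 replicate 1 (0.0654) or TWEAK30 replicate 2 (0.0606).

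Of 24 adaptors and kinases 9 rose and 2 fell (median 0.09), beside 12.6% rising and 10.7% falling among all genes tested. The cIAP ubiquitin ligases Birc2 and Birc3, which Fn14 recruits, rose from 56.3 and 52.4 to 289 and 236 CPM (log2 change 2.27 ± 0.11, edgeR adjusted p = 1.37e-05) and from 18.5 and 18.4 to 80.7 and 71.8 CPM (log2 change 2.05 ± 0.09, edgeR adjusted p = 6.97e-06). Traf5 rose from 26.6 and 24.97 to 43.4 and 41.6 CPM. The kinase gene Chuk stood at 81.6 and 81.5 CPM untreated and 68.4 and 67.7 CPM at 30 ng/ml. The scaffold gene Ikbkg stood at 53.04 and 48.02 CPM untreated and 33.2 and 39.7 CPM at 30 ng/ml. Both were called lower with all libraries and neither when any 1 of the 4 compared was left out. Of 23 death and survival genes 8 rose and 0 fell (median 0.38). Gsdmd, the pore-forming executor of pyroptosis, rose from 26.8 and 28.5 to 77.8 and 70.2 CPM (log2 change 1.42 ± 0.09, edgeR adjusted p = 2.85e-05), the inflammatory caspase Casp4 from 20.2 and 21.1 to 58.4 and 50.7 CPM, the BH3 protein Bid from 27.2 and 26.02 to 62.3 and 58.1 CPM and the necroptosis effector Mlkl from 17.1 and 18.4 to 37.9 and 34.7 CPM.

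The promoters of genes that rose are shown because several hold sequences of the NF-kB type. The window runs from 250 bases before to 50 after a RefSeq start site on GRCm38.p6, and it was searched on both strands for GGGNN directly followed by TTNCC. Of the 26 genes that the naming rule gave as leading rises or risen NF-kB genes, 18 had a window and 6 held a match. They are printed 5′ to 3′ on the gene's strand, with matches in capitals. The Madcam1 window (plus strand, chr10:79664309-79664608) holds 3 matches, of which 2 overlap, and that of Cdhr1 (minus strand, chr14:37098298-37098597) holds 1. Nfkb2 has several windows, of which the first is shown (plus strand, chr19:46304487-46304786), with 4 matches that overlap in part. The windows of Nfkbia (minus strand, chr12:55492598-55492897), Tnip1 (minus strand, chr11:54962891-54963190) and Tnfaip3 (minus strand, first window, chr10:19015361-19015660) hold 1 position each, which in Tnip1 reads on both strands.
Madcam1: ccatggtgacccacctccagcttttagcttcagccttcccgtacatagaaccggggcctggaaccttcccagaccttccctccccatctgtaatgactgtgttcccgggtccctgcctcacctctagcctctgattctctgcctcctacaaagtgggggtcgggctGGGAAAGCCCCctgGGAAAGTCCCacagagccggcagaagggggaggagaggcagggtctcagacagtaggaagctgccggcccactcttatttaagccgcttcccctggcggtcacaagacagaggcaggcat
Cdhr1: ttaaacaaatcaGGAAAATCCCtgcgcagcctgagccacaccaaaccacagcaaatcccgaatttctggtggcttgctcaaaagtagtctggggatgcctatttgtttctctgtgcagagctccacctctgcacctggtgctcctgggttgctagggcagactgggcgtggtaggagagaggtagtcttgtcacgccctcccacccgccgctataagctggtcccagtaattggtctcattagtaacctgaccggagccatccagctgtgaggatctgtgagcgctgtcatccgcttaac
Nfkb2: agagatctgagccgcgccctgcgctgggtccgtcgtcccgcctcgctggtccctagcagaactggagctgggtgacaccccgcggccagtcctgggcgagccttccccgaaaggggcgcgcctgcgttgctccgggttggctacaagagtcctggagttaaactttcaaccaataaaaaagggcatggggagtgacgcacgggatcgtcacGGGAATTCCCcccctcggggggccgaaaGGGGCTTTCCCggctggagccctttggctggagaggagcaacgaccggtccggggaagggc
Nfkbia: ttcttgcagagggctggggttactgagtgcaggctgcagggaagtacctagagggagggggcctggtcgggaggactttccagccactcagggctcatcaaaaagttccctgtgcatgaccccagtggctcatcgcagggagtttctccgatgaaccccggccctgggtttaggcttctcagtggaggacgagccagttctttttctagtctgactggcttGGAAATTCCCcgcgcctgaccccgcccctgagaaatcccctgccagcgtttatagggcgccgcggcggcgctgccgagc
Tnip1: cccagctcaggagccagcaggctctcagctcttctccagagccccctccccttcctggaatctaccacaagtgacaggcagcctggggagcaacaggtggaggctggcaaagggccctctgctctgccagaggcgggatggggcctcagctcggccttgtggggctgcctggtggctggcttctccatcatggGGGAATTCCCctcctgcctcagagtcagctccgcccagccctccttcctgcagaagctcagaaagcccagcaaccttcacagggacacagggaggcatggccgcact
Tnfaip3: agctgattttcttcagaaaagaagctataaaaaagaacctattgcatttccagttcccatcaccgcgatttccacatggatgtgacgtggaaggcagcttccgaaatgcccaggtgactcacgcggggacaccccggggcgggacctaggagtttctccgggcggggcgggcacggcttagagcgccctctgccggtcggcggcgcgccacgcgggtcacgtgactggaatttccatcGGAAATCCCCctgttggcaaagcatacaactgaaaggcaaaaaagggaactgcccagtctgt

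A match was held by 6.68% of all tested genes with a window (765 of 11452), 9.73% of those that rose, 17.4% of those that rose at least 4-fold and 21.2% of those that rose at least 8-fold (31 of 146). Among genes that fell the share was 5.86%, and 7.14% of those that fell at least 4-fold. For the AP-1 motif TGANTCA the shares were 6.6% of tested genes, 7.36% of those that rose and 6.45% of those that fell. Only at the extremes did they differ more, with 17.1% of genes up at least 8-fold and 4.46% of those down at least 4-fold. For TATAAA they were 8.99% of tested genes, 10.2% of those that rose and 10.5% of those that fell. With 17.8% of genes up at least 8-fold and 18.8% of those down at least 4-fold, this motif was more frequent at both ends. A match is a description of letters in these windows and was not tested as a binding site.

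Several chemokines that attract monocytes and lymphocytes rose. Of 10 CC chemokines 6 rose and none fell (median log2 change 2.28). Besides Ccl5, the monocyte chemoattractants Ccl2 (log2 change 3.17 ± 0.17, edgeR adjusted p = 1.66e-05), Ccl7 (from 80.7 and 95.3 to 664 and 512 CPM, log2 change 2.74 ± 0.14, edgeR adjusted p = 1.42e-05) and Ccl8 (from 52.4 and 54.3 to 194 and 182 CPM, log2 change 1.82 ± 0.08, edgeR adjusted p = 6.97e-06) rose. Among 12 CXC and CX3C chemokines 6 rose and 3 fell (median 1.43). The scavenger-receptor chemokine Cxcl16 rose from 38.2 and 37.8 to 252 and 226 CPM (log2 change 2.65 ± 0.08, edgeR adjusted p = 3.00e-06). Cxcl9 and Cxcl10, ligands of the chemokine receptor Cxcr3 of T cells, rose from 0 and 0.1003 to 6.297 and 1.94 CPM (Cxcl9) and from 3.16 and 4.73 to 62.6 and 24.9 CPM (Cxcl10). In both genes the level was more than 2-fold higher in TWEAK30 replicate 1 than in replicate 2. The neutrophil chemokine Cxcl5 fell from 54.9 and 66.98 to 29.8 and 33.7 CPM and Cxcl14 from 69.5 and 70.3 to 43.9 and 45.2 CPM.

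Of 20 interleukins and related cytokines 8 rose and 3 fell (median 0.42), beside 12.6% rising and 10.7% falling among all genes tested. The alarmin Il33 rose from 19.6 and 23.2 to 208 and 233 CPM (log2 change 3.36 ± 0.13, edgeR adjusted p = 6.02e-06), and its receptor Il1rl1 (ST2) from 11.2 and 12.3 to 94.6 and 66.8 CPM (log2 change 2.78 ± 0.18, edgeR adjusted p = 3.59e-05), so that ligand and receptor genes were both higher in the same libraries. Lif, a cytokine of the interleukin 6 family, rose from 7.67 and 7.78 to 43.3 and 44.5 CPM. The macrophage growth factors Csf1 and Il34, which share a receptor, rose from 301 and 282 to 841 and 726 CPM and from 2.996 and 2.53 to 11.6 and 9.66 CPM. Il16 fell from 25.6 and 23.3 to 11.8 and 11.8 CPM. Among 27 cytokine receptors 10 rose and 4 fell, with 2 falling without untreated replicate 1. The interferon gamma receptor chain Ifngr1 rose from 41.9 and 44.1 to 115 and 96.8 CPM, Il6ra fell from 50.6 and 52.3 to 27.2 and 31.4 CPM and Il17ra from 171 and 157 to 98.2 and 118 CPM.

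Genes of adhesion and of lymphoid stroma, the fibroblasts that organise lymph nodes, were among the lists with the larger medians. Of 18 members 10 rose and 2 fell (median 0.90). Beside Spib and Madcam1, Enpp2, the enzyme autotaxin that makes lysophosphatidic acid, rose from 16.996 and 19.96 to 266 and 208 CPM (log2 change 3.68 ± 0.15, edgeR adjusted p = 6.87e-06) and the leukocyte adhesion molecule Icam1 from 129 and 132 to 551 and 472 CPM (log2 change 1.97 ± 0.08, edgeR adjusted p = 6.87e-06). The 2 members that fell were Ltbr and the prion protein gene Prnp (from 330.3 and 319.6 to 235 and 239 CPM).

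Many genes of class I antigen presentation were higher. Of 25 genes 17 rose and none fell (median 0.70), and 11 rose without untreated replicate 2. The heavy chain genes H2-K1 and H2-D1 rose from 138 and 106 to 327 and 281 CPM and from 216 and 185 to 509.8 and 454 CPM, and the nonclassical H2-Q4 and H2-Q7 from 29.1 and 26.1 to 114 and 101 CPM and from 1.18 and 0.842 to 17.4 and 11.97 CPM. These genes are near-identical in parts, and reads could be split between them. In the class II and costimulation list 3 of 10 rose and 1 fell, beside 12.6% and 10.7% of all genes tested. Icosl, the ligand of ICOS, fell from 22.4 and 24.2 to 4.89 and 5.88 CPM (log2 change -2.12 ± 0.18, edgeR adjusted p = 0.000138), Cd80 rose from 8.05 and 7.28 to 14.2 and 14.2 CPM and the invariant chain Cd74 from 0 and 0.1204 to 1.48 and 1.09 CPM.

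Few interferon-stimulated genes were called by edgeR. Of 44 tested, 2 rose and 3 fell (median log2 change -0.19), fewer in each direction than the 12.6% and 10.7% of all genes. The count depended on the method, with 4 higher and 6 lower by DESeq2 and 2 higher and 7 lower by limma-voom. At 10 ng/ml against untreated cells edgeR called 1 higher and 15 lower. Leaving out an untreated library gave 1 rise and 1 fall (replicate 1) or 1 rise and 2 falls (replicate 2). The count also rested on which treated library was used. In a fit without TWEAK30 replicate 1, 1 rose and 10 fell. In a fit without TWEAK30 replicate 2, 4 rose and 1 fell. In 43 of the 44 genes TWEAK30 replicate 1 was above replicate 2, by a median of 0.63 on the log2 scale. The summed level at 30 ng/ml was 2026 and 1349.6 CPM. The same median difference was 0.17 between the untreated libraries, 0.24 at 10 ng/ml and -0.25 at 100 ng/ml. Replicate 1 was also the higher in 35 of the 44 genes untreated and in 37 at 10 ng/ml, but in 10 at 100 ng/ml. A tilt toward replicate 1 was thus not confined to the 30 ng/ml pair. Ifit2, an antiviral protein, fell from 47.1 and 50.8 to 23.1 and 18.9 CPM (log2 change -1.22 ± 0.12, edgeR adjusted p = 0.000218) and Ifi27 rose from 74.8 and 86.6 to 126 and 114 CPM, and these calls held without either treated library.

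**Figure D3:**
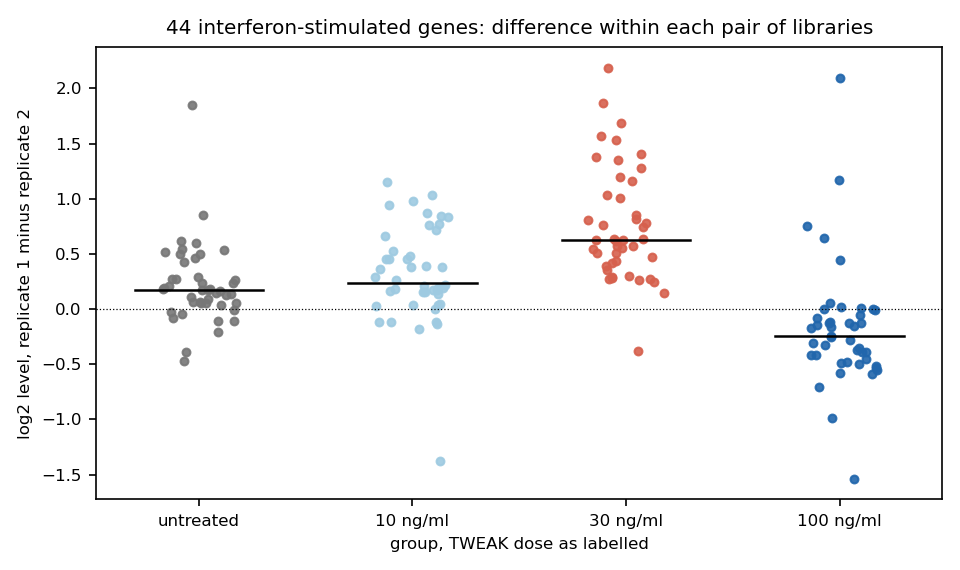
Log2 level in replicate 1 minus that in replicate 2 for 44 interferon-stimulated genes in each group (doses as labelled), with 1 point per gene and a bar at the median. At 30 ng/ml 43 of 44 points lie above 0, around a median of 0.63, and in the other groups the medians lie between -0.25 and 0.24. Replicate 1 was the higher in 35 genes untreated, 37 at 10 ng/ml and 10 at 100 ng/ml.

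Other genes of innate immunity moved both ways, where 12.6% of all genes tested rose and 10.7% fell. In pattern sensing 6 of 23 rose and 4 fell, and 1 fell without untreated replicate 1 and 2 without untreated replicate 2 or TWEAK30 replicate 2. The lipopeptide receptors Tlr1 and Tlr2 rose from 0.1398 and 0.1003 to 11.1 and 8.22 CPM (log2 change 6.30 ± 0.42, edgeR adjusted p = 4.27e-05) and from 24.01 and 28.4 to 47.7 and 47.002 CPM, the sensor adaptor Tmem173 (STING) from 44.2 and 34.7 to 74.3 and 70.9 CPM. The lipopolysaccharide-binding Lbp fell from 49.9 and 49.8 to 15.1 and 17.5 CPM. In complement 3 of 22 rose and 7 fell (median -0.18). C3 and the C1s protease genes C1s1 (from 618 and 641 to 1018 and 947 CPM) and C1s2 (from 0.719 and 0.481 to 9.84 and 8.55 CPM) rose, and the C1 inhibitor Serping1 fell from 1059 and 1027 to 586 and 563 CPM. Of 15 acute phase genes 6 rose and 3 fell, and 2 rose without untreated replicate 1, 2 without TWEAK30 replicate 1 and 3 without TWEAK30 replicate 2. The serpins Serpina3g and Serpina3f rose from 128 and 135 to 809 and 641 CPM and from 1.098 and 1.62 to 7.002 and 4.46 CPM. Serpina3n fell from 1559 and 1566 to 1244 and 1245 CPM and the serum amyloid Saa3 from 170.2 and 255 to 69.4 and 72.4 CPM.

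Prostaglandin genes rose, 9 of 16 with 1 falling (median 0.54), beside 12.6% rising and 10.7% falling among all genes tested. The inducible cyclooxygenase Ptgs2 rose from 20.8 and 20.1 to 103 and 84.6 CPM (log2 change 2.20 ± 0.14, edgeR adjusted p = 3.43e-05) and the prostaglandin E synthase Ptges, which acts after it, from 96.9 and 111 to 423 and 380.1 CPM (log2 change 1.95 ± 0.09, edgeR adjusted p = 9.77e-06). The transporter Slco2a1, which takes prostaglandins up, rose from 15.3 and 12.4 to 129 and 101 CPM, the prostacyclin receptor Ptgir from 14.3 and 14.1 to 54.1 and 47.6 CPM. The prostacyclin synthase Ptgis fell from 166 and 158 to 105 and 110.2 CPM. Among 21 AP-1 and early response factors 9 rose and 4 fell (median 0.29). Egr2 rose from 3.44 and 3.79 to 29.9 and 35.9 CPM (log2 change 3.19 ± 0.12, edgeR adjusted p = 6.82e-06), Junb from 79.9 and 72.9 to 166 and 193 CPM and the growth regulator Myc from 11.1 and 10.6 to 45.5 and 33.6 CPM. Klf4 fell from 179.5 and 161 to 86.3 and 91.999 CPM and Mafk from 69.3 and 66.96 to 44.1 and 45.1 CPM.

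The collagen matrix was lower at 30 ng/ml. Of 29 collagen chains 16 fell and 4 rose (median log2 change -0.41), and their summed level went from 25533 and 24875 CPM untreated to 13044 and 15032 CPM. Col3a1 (log2 change -1.62 ± 0.13, edgeR adjusted p = 9.15e-05) and Col1a1 (log2 change -1.08 ± 0.08, edgeR adjusted p = 7.48e-05), the main fibrillar chains of lung, fell most in absolute level. Col28a1 fell from 14.6 and 16.4 to 3.06 and 3.38 CPM (log2 change -2.27 ± 0.15, edgeR adjusted p = 4.52e-05), Col6a2 from 206 and 201 to 86.2 and 92.8 CPM and Col5a2 from 2469.7 and 2444 to 1213 and 1392 CPM. Against this direction Col5a3 rose from 51.9 and 50.01 to 150.0 and 156 CPM (log2 change 1.59 ± 0.09, edgeR adjusted p = 1.76e-05) and Col12a1 from 303 and 285 to 530.1 and 515 CPM, so that chains of the type V family moved in opposite directions.

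Genes that assemble and cross-link collagen fell with it, 11 of 23 with 3 rising (median -0.21). The cross-linking oxidases Lox and Loxl2 fell from 455 and 468 to 125 and 166 CPM and from 336 and 329 to 139.6 and 153 CPM, and the procollagen N-proteinase Adamts2 from 1811 and 1653 to 624 and 721 CPM. The related Adamts14 rose from 8.63 and 8.91 to 44.5 and 35.5 CPM (log2 change 2.19 ± 0.14, edgeR adjusted p = 3.60e-05) and the prolyl hydroxylase P4ha2 from 67.7 and 63.3 to 95.5 and 90.8 CPM. Small leucine-rich proteoglycans, which bind and space collagen fibrils, had 7 falls and no rise among 13 (median -1.39). After Aspn and Ogn, Fmod (fibromodulin) fell from 157 and 153 to 26.6 and 26.8 CPM (log2 change -2.54 ± 0.16, edgeR adjusted p = 3.95e-05) and Prelp from 1171 and 1159 to 423 and 468 CPM (log2 change -1.39 ± 0.07, edgeR adjusted p = 1.17e-05).

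Elastic fibre and microfibril genes fell in 11 of 17 and rose in 2 (median -0.51), beside 10.7% falling and 12.6% rising among all genes tested. The risers were Ltbp2 (log2 change 1.88 ± 0.04, edgeR adjusted p = 1.37e-06) and elastin itself, Eln (from 101 and 104 to 164 and 142 CPM). The fibulins Fbln1 and Fbln5 fell from 257 and 251 to 51.1 and 73.8 CPM and from 81.8 and 79.7 to 31.2 and 33.4 CPM and Ltbp1, which stores TGF-beta in the matrix, from 456 and 454 to 246 and 273 CPM. Of 19 basement membrane genes 8 fell and 4 rose, with 1 rising without either untreated library or TWEAK30 replicate 2, and 2 without TWEAK30 replicate 1. The linker Nid2 fell from 491 and 459.8 to 57.5 and 86.6 CPM (log2 change -2.72 ± 0.20, edgeR adjusted p = 6.14e-05) and the laminin chain Lama2 from 129 and 118 to 39.9 and 48.2 CPM, against a rise of Lama5 from 83.1 and 68.4 to 177 and 165 CPM. Among 27 matricellular and glycoprotein genes 15 fell and 6 rose (median -0.62). Smoc2 (from 117 and 106 to 19.2 and 23.8 CPM) and Cthrc1 (from 10.3 and 10.7 to 1.45 and 1.58 CPM) fell. Rises were those of osteopontin, Spp1 (from 238 and 249 to 548 and 595 CPM), and the CCN protein Nov (from 18.3 and 17.7 to 47.98 and 45.4 CPM).

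Proteases and their inhibitors moved both ways, beside 12.6% rising and 10.7% falling among all genes tested. Of 16 matrix metalloproteinases 4 rose and 4 fell (median -0.04). The stromelysin Mmp10 rose from 14.6 and 16.3 to 111 and 105 CPM (log2 change 2.81 ± 0.10, edgeR adjusted p = 3.64e-06) and the elastase Mmp12 from 2.28 and 2.49 to 8.65 and 7.77 CPM, beside Mmp9. The gelatinase Mmp2, the constitutive counterpart of Mmp9, fell from 693 and 681 to 318 and 387 CPM and the collagenase Mmp8 from 1225 and 1275 to 770.0 and 876 CPM. Of 16 protease inhibitor and plasminogen genes 4 rose and 5 fell. Among them Timp1 rose from 327 and 328 to 547 and 543 CPM (log2 change 0.74 ± 0.05, edgeR adjusted p = 5.72e-05). Timp3 (log2 change -2.46 ± 0.08, edgeR adjusted p = 3.64e-06) and the membrane-anchored inhibitor Reck (from 61.6 and 60.1 to 35.1 and 33.7 CPM) fell. ADAMTS proteases fell in 9 of 15 and rose in 2 (median -0.93). Adamts10 fell from 95.6 and 98.5 to 51.8 and 54.1 CPM and Adamts7 rose from 50.7 and 53.2 to 119.6 and 115 CPM. Integrins were split, 5 up and 5 down of 19 (3 down without untreated replicate 2 or TWEAK30 replicate 2). The subunit Itga8, a marker of lung fibroblasts that binds nephronectin, fell from 212 and 202 to 33.5 and 31.2 CPM (log2 change -2.68 ± 0.08, edgeR adjusted p = 3.26e-06) and the collagen receptor subunit Itga1 from 81.6 and 82.8 to 38.1 and 33.3 CPM. The collagen receptor subunit Itga2 rose from 39.2 and 37.9 to 78.3 and 78.2 CPM.

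Contractile genes gave no single direction, 8 of 28 up and 7 down (median -0.12), with 3 down without untreated replicate 1 and 4 without TWEAK30 replicate 2. Nonmuscle myosin Myh9 rose from 1242 and 1197 to 1778 and 1779 CPM, the intermediate filament gene Des from 35.5 and 27.6 to 105 and 93.9 CPM and the fibroblast cadherin Cdh11 from 235 and 239 to 565 and 461 CPM. The light chain kinase Mylk fell from 675 and 676 to 465 and 434 CPM and the second nonmuscle myosin Myh10 from 238 and 238 to 165 and 175 CPM. Of 31 TGF-beta pathway genes 14 fell and 6 rose (median -0.32). The ligand Tgfb1 rose from 50.4 and 49.7 to 100.3 and 104 CPM (log2 change 1.03 ± 0.07, edgeR adjusted p = 4.20e-05), its signalling receptor Tgfbr2 fell from 868 and 827 to 360.1 and 426 CPM (log2 change -1.11 ± 0.08, edgeR adjusted p = 6.68e-05), and the TGF-beta target Nox4, an oxidase that makes hydrogen peroxide, fell from 57.4 and 60.2 to 15.5 and 18.1 CPM (log2 change -1.81 ± 0.12, edgeR adjusted p = 3.95e-05). Tgfb1 and Tgfbr2 thus moved in opposite directions.

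BMP and Wnt genes fell more often than they rose. In the BMP list 17 of 27 fell and 5 rose (median -0.67). The ligands Bmp4 and Bmp5 fell from 81.9 and 75.6 to 7.88 and 11.4 CPM (log2 change -3.03 ± 0.18, edgeR adjusted p = 2.82e-05) and from 99.98 and 104 to 32.3 and 37.9 CPM, and Gdf10 (BMP3b) from 73.95 and 70.5 to 8.12 and 9.21 CPM, against a rise of Bmp3 from 2.92 and 2.43 to 24.1 and 14.3 CPM and of the antagonist Grem1. In the Wnt list 20 of 35 fell and 2 rose (median -0.76). The secreted antagonists Sfrp1 and Sfrp2 fell from 1651 and 1628 to 461 and 588 CPM and from 157 and 147 to 13.5 and 18.98 CPM (log2 change -3.23 ± 0.17, edgeR adjusted p = 1.53e-05). The enhancer Rspo2 rose from 4.87 and 5.84 to 33.3 and 28.4 CPM (log2 change 2.53 ± 0.14, edgeR adjusted p = 1.97e-05). The other member that rose was the transcription factor Tcf7 (from 1.86 and 2.25 to 3.55 and 4.04 CPM), a call lost without untreated replicate 1 (adjusted p = 0.107) or TWEAK30 replicate 2 (0.0863). Growth factor genes were mixed, 13 of 42 up and 11 down, beside 12.6% and 10.7% of all genes tested. The epithelial growth factor Nrg1 rose from 8.67 and 8.22 to 77.3 and 73.8 CPM (log2 change 3.16 ± 0.12, edgeR adjusted p = 6.87e-06) and the lymphatic factor Vegfc from 58.04 and 55.8 to 222 and 193 CPM, and Igf1 fell from 228 and 227 to 37.2 and 45.04 CPM (log2 change -2.47 ± 0.10, edgeR adjusted p = 6.97e-06) with its binding protein Igfbp5 from 1626 and 1578 to 448 and 390.0 CPM.

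**Figure D4:**
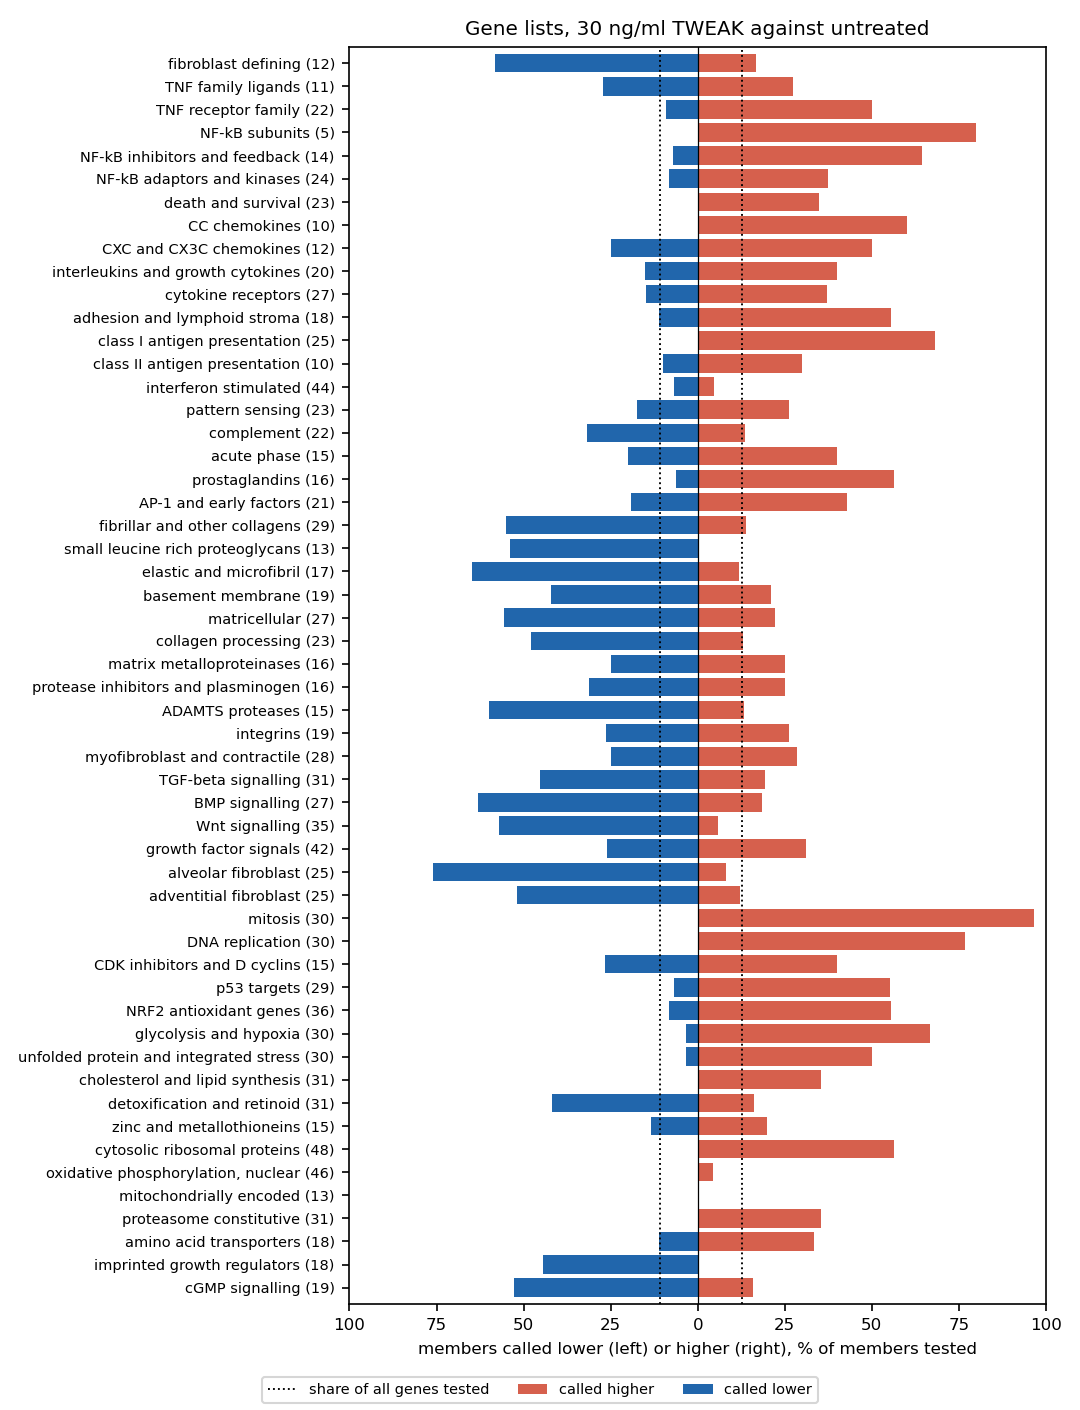
Share of the members of each gene list that were called higher (right, red) or lower (left, blue) at 30 ng/ml, in percent of the members tested (number in brackets), with dotted lines at the 12.6% and 10.7% of all genes tested. Mitosis, the NF-kB subunits and DNA replication reach farthest to the right, and the alveolar fibroblast genes farthest to the left.

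Genes that mark fibroblast types of the intact lung fell more often than they rose. Of 25 alveolar fibroblast genes 19 fell and 2 rose (median -1.37). Besides Itga8 and Gucy1a3, the guanylate cyclase subunit Gucy1b3 fell from 54.003 and 56.8 to 7.66 and 9.58 CPM (log2 change -2.68 ± 0.12, edgeR adjusted p = 9.77e-06) and the lipid esterase Ces1d from 132 and 138 to 19.2 and 23.6 CPM (log2 change -2.66 ± 0.15, edgeR adjusted p = 2.20e-05). The lipid droplet gene Plin2 rose from 160.3 and 159.6 to 218 and 240.1 CPM. The list's other riser was the growth factor receptor Pdgfra (from 1276 and 1249 to 1556 and 1423 CPM), which was no longer called without untreated replicate 1 (adjusted p = 0.0676), without untreated replicate 2 (0.0961) or without TWEAK30 replicate 1 (0.0731). Of 25 adventitial fibroblast genes 13 fell and 3 rose (median -0.66), the latter including Il33 and the surface sialomucin Cd34 (from 2.22 and 2.01 to 39.4 and 25.97 CPM, log2 change 3.95 ± 0.24, edgeR adjusted p = 2.98e-05). Defining fibroblast genes fell in 7 of 12 and rose in 2. None rose in fits without untreated replicate 1 or TWEAK30 replicate 1, and 1 rose without untreated replicate 2. Of these genes Thy1 stood at 82.04 and 84.9 CPM untreated and 35.3 and 35.4 CPM at 30 ng/ml and Pdgfrb at 835 and 781 CPM untreated and 479 and 527 CPM at 30 ng/ml. In the cGMP pathway, which nitric oxide drives in alveolar fibroblasts, 10 of 19 fell and 3 rose. The phosphodiesterases Pde5a and Pde1a fell from 49.8 and 49.7 to 20.98 and 22.8 CPM and from 182 and 174 to 64.2 and 78.97 CPM. The inducible nitric oxide synthase Nos2 had 2 untreated counts and 3.35 and 1.51 CPM at 30 ng/ml, a ratio of 123 times, with a 95% counting interval from 33.6 to 1022.

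Cell cycle genes rose. Of 30 mitosis genes 29 rose and none fell (median log2 change 1.16), and between 20 and 27 rose when any 1 of the 4 libraries was left out. Mki67, the proliferation antigen, rose from 14.5 and 15.3 to 48.3 and 40.2 CPM (log2 change 1.57 ± 0.14, edgeR adjusted p = 0.0001898), the cytokinesis gene Anln from 10.9 and 12.1 to 37.2 and 32.1 CPM (log2 change 1.59 ± 0.12, edgeR adjusted p = 6.74e-05) and the ubiquitin-conjugating enzyme Ube2c from 2.796 and 2.97 to 10.7 and 8.97 CPM. In DNA replication 23 of 30 rose and none fell (median 0.71). These included the helicase subunits Mcm5 (from 8.01 and 8.57 to 25.98 and 20.7 CPM) and Mcm7 (from 25.7 and 24.5 to 56.1 and 48.2 CPM), the ribonucleotide reductase Rrm2 (from 10.9 and 13.4 to 37.01 and 31.9 CPM) and Uhrf1, which maintains DNA methylation (from 10.3 and 12.5 to 47.5 and 38.1 CPM). Regulators of the G1 phase moved both ways, 6 up and 4 down of 15. Ccnd1 (cyclin D1) rose from 23.7 and 24.8 to 182 and 139 CPM (log2 change 2.73 ± 0.13, edgeR adjusted p = 1.04e-05) and Ccnd2 fell from 519 and 528 to 417 and 415 CPM. The inhibitor genes Cdkn2a, Cdkn2b and Cdkn1a rose from 7.03 and 5.998 to 26.9 and 22.2 CPM, from 17.7 and 20.1 to 59.9 and 56.6 CPM and from 345 and 335 to 497 and 488 CPM, and Cdkn1b fell from 80.03 and 81.1 to 53.5 and 57.7 CPM. Of 29 p53 targets 16 rose and 2 fell. None fell in fits without untreated replicate 1 or TWEAK30 replicate 1, and 1 fell without TWEAK30 replicate 2. Risers included the polo-like kinase Plk2 (from 74.7 and 75.1 to 343 and 316 CPM, log2 change 2.14 ± 0.07, edgeR adjusted p = 3.63e-06) and the p53 ligase Mdm2 (from 113 and 111 to 237 and 231 CPM).

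Antioxidant and glycolytic genes rose more often than they fell, where 12.6% of all genes tested rose and 10.7% fell. Of 36 NRF2 targets 20 rose and 3 fell (median 0.43), with 1 falling without either untreated library or TWEAK30 replicate 1. The cystine importer Slc7a11 rose from 7.57 and 8.24 to 135 and 129.5 CPM (log2 change 4.06 ± 0.16, edgeR adjusted p = 6.87e-06), the haem oxygenase Hmox1 from 187 and 179 to 499 and 534 CPM (log2 change 1.49 ± 0.06, edgeR adjusted p = 6.97e-06) and the autophagy receptor Sqstm1 from 754 and 773 to 1518 and 1584 CPM. The secreted peroxidase Gpx3 fell from 628 and 665 to 175 and 228 CPM. Glycolysis and hypoxia genes rose in 20 of 30 and fell in 1 (median 0.58), and that fall was lost when any 1 of the 4 libraries was left out. Among the risers were the kinase Pgk1 (from 253 and 265 to 617 and 547 CPM), the lactate exporter Slc16a3 (from 37.9 and 43.6 to 91.8 and 89.02 CPM) and the glucose transporter Slc2a1 (from 152 and 142 to 233 and 238 CPM). Stress genes of the unfolded protein and integrated stress responses rose in 15 of 30, or 9 without untreated replicate 1, and fell in 1 (median 0.25). The mitochondrial serine enzyme Shmt2 rose from 67.02 and 58.6 to 128 and 129 CPM and the chaperone partner Dnajc3 fell from 323 and 320.2 to 239 and 234 CPM. Cholesterol and lipid synthesis genes rose in 11 of 31, or 7 without untreated replicate 2, and fell in 0 (median 0.11).

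Amino acid transporters other than Slc7a11 rose in 6 of 18 and fell in 2. The exchanger Slc7a7 rose from 3.73 and 3.31 to 36.4 and 25.4 CPM (log2 change 3.13 ± 0.21, edgeR adjusted p = 4.76e-05), Slc1a5 from 115 and 116 to 228 and 218 CPM, and Slc38a2 fell from 714 and 720.5 to 438 and 461 CPM. Detoxification and retinoid genes fell in 13 of 31 and rose in 5 (median -0.57). Leaving out libraries, 2 rose without either untreated library and 3 without TWEAK30 replicate 1. The monooxygenase Fmo2 fell from 126 and 128 to 17.9 and 18.3 CPM (log2 change -2.81 ± 0.14, edgeR adjusted p = 1.31e-05) and the retinol-oxidising Adh1 from 101 and 101 to 17.9 and 26.2 CPM. The retinoid enzymes Rdh10 and Cyp26b1 rose from 20.1 and 20.7 to 38.4 and 35.7 CPM and from 1.42 and 1.89 to 4.67 and 5.43 CPM. The metallothioneins Mt1 and Mt2, which bind zinc, rose from 246 and 265 to 346 and 390.2 CPM and from 219 and 228 to 422 and 438 CPM. In their list 3 of 15 rose and 2 fell, beside 12.6% and 10.7% of all genes. Neither fall was called without either untreated library or TWEAK30 replicate 1, and 1 was without TWEAK30 replicate 2. Imprinted growth regulators fell in 8 of 18 and none rose (median -0.56). Those that fell included Plagl1, Grb10 (from 846 and 806 to 505 and 520.2 CPM), Igf2r (from 682 and 655 to 405 and 447 CPM) and Peg10 (from 50.6 and 48.7 to 23.9 and 28.4 CPM).

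Changes in housekeeping lists were small. Cytosolic ribosomal protein genes rose in 27 of 48 and fell in 0, with a median log2 change of 0.25. The count of rises was 4 without untreated replicate 1, 15 without untreated replicate 2, 17 without TWEAK30 replicate 1 and 7 without TWEAK30 replicate 2. Rpl3 went from 634 and 673 to 889 and 871 CPM (log2 change 0.43 ± 0.06, edgeR adjusted p = 0.00208). Constitutive proteasome genes rose in 11 of 31 and fell in 0 (median 0.22), with Psma6 from 83.7 and 93.9 to 155 and 145 CPM. Here 5 rose without untreated replicate 1, 7 without TWEAK30 replicate 1 and 6 without TWEAK30 replicate 2. Nuclear genes of oxidative phosphorylation rose in 2 of 46 and fell in 0 (median 0.09), under the 12.6% and 10.7% of all genes tested. None rose without untreated replicate 1 or TWEAK30 replicate 2, 1 rose without untreated replicate 2, and 3 rose and 1 fell without TWEAK30 replicate 1. None of 13 genes encoded in mitochondria was called, and 1 was called lower without untreated replicate 2. Among the latter mt-Atp6 stood at 2298 and 423 CPM in the untreated libraries and 376 and 370.0 CPM at 30 ng/ml (log2 change -1.87 ± 0.61, edgeR adjusted p = 0.06401), so that 1 untreated library alone was high.

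Some markers of other cell types changed from low levels, beside 12.6% rising and 10.7% falling among all genes tested. These small lists were not tested against those shares. Of 9 macrophage markers tested 2 rose and 1 fell, and their sum went from 38.01 and 34.1 CPM untreated to 68.2 and 55.3 CPM at 30 ng/ml. It was carried by Cd68 (from 2.02 and 2.11 to 8.76 and 7.63 CPM) and Cd14 (from 17.9 and 17.7 to 39.6 and 32.04 CPM), with Itgam at 0 and 0 CPM and Adgre1 at 0.0661 and 0 CPM at 30 ng/ml. Of 8 endothelial markers 2 rose and 1 fell (sum from 22.1 and 22.8 to 62.2 and 60.5 CPM). Flt1 (from 13.2 and 13.7 to 52.8 and 51.02 CPM) made up most of it, and Kdr stood at 0.484 and 0.118 CPM at 30 ng/ml. Mesothelial markers fell in 5 of 8 (sum from 32.9 and 32.7 to 10.4 and 11.8 CPM), including Upk3b (from 6.33 and 7.02 to 1.56 and 1.82 CPM). Wt1 stood at 2.06 and 1.504 CPM untreated and 1.48 and 1.86 CPM at 30 ng/ml. Pericyte and smooth muscle markers fell in 5 of 10, or 2 without untreated replicate 1, and rose in 3, with sums of 205 and 189 CPM untreated and 207 and 202 CPM at 30 ng/ml. The adipocyte list went from 38.3 and 43.5 to 209.9 and 174 CPM, carried by the lipase Lpl (from 31.4 and 34.9 to 192 and 157 CPM). Fabp4 stood at 17.2 and 15.6 CPM and Pparg at 0.5505 and 1.44 CPM at 30 ng/ml. Epithelial markers summed to 5.35 and 8.57 CPM untreated and 8.896 and 7.29 CPM at 30 ng/ml. The sums of lymphocyte markers were 2.32 and 1.85 CPM untreated and 3.94 and 4.51 CPM at 30 ng/ml. Glial and neural markers, mostly Tubb3, summed to 71.7 and 68.4 CPM untreated and 75.04 and 77.4 CPM at 30 ng/ml. None of the 5 tested was called. All 7 red blood cell genes were at 0 counts in every library. The part of such cells in the results was not tested.

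Cells at 30 ng/ml lay between those labelled 100 and 10 ng/ml on the first principal component of log2 CPM, which held 49.7% of the variance. The untreated libraries stood at -67.56 and -66.54, those at 100 ng/ml at -36.19 and -37.71, those at 30 ng/ml at 48.66 and 35.34 and those at 10 ng/ml at 61.44 and 62.57. This is not the order of the labelled doses, and whether the dose labels are right was not tested. Each direction between doses below holds only as far as those labels do. Compared directly, 2637 genes differed between 30 and 100 ng/ml (15.2% of those tested), 1395 higher (8.04%) and 1242 lower (7.15%) at 30. Leaving out TWEAK30 replicate 1 gave 1393, and leaving out 1 of the 100 ng/ml libraries 1594 (replicate 1) or 1677 (replicate 2). Mmp9 stood at 13.2 and 11.8 CPM at 100 ng/ml (log2 difference 4.09 ± 0.16, edgeR adjusted p = 7.17e-05). Ccl5 stood at 1.99 and 1.88 CPM (4.06 ± 0.26, edgeR adjusted p = 0.0001399) and Bst1 at 0.251 and 0.9004 CPM (5.69 ± 0.67). All 3 lay below their levels at 30 ng/ml. Ogn stood at 291 and 329 CPM at 100 ng/ml (-3.16 ± 0.21, edgeR adjusted p = 0.000153). Aspn stood at 9.22 and 9.45 CPM (-3.56 ± 0.19) and Lrp4 at 54.3 and 56.9 CPM (-2.91 ± 0.22). All 3 lay above theirs at 30 ng/ml. Of the 30 mitosis genes 17 were higher at 30 than at 100 ng/ml, of 29 collagens 14 were lower, and of 44 interferon-stimulated genes 3 were higher and 1 lower.

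Between 30 and 10 ng/ml edgeR called 0 of 17360 genes, with 1208 at an unadjusted p under 0.05 and a smallest adjusted p of 0.103. DESeq2 called 131, of which 104 were higher at 30 ng/ml, and limma-voom 0. With libraries left out, edgeR called 59 without TWEAK30 replicate 1 and between 3 and 10 without any other 1 library. Mmp9 stood at 337 and 380.1 CPM at 10 ng/ml (log2 difference of 30 from 10 ng/ml -0.75 ± 0.14, edgeR adjusted p = 0.286) and Ogn at 19.1 and 14.7 CPM (1.04 ± 0.20, edgeR adjusted p = 0.286). Col3a1 stood at 1935 and 1885 CPM (0.61 ± 0.13, edgeR adjusted p = 0.362) and Sfrp2 at 7.83 and 7.46 CPM (1.09 ± 0.16, edgeR adjusted p = 0.213). In all 4 the levels at 30 ng/ml lay between those at 10 ng/ml and those of untreated cells, without overlap. The naming rule gave no gene for this comparison, and these 4 do not stand for all genes. Class I antigen presentation genes, for example, summed to 5564 and 5369 CPM at 10 and 5804 and 5235 CPM at 30 ng/ml, which overlap. The difference between these doses did not pass the test. Tnfrsf12a stood at 33.3 and 32.3 CPM at 10, 29.02 and 40.04 CPM at 30 and 21.6 and 22.8 CPM at 100 ng/ml. Comparisons with untreated cells share the same 2 control libraries, so the doses' own changes are not independent of each other.

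**Figure D5:**
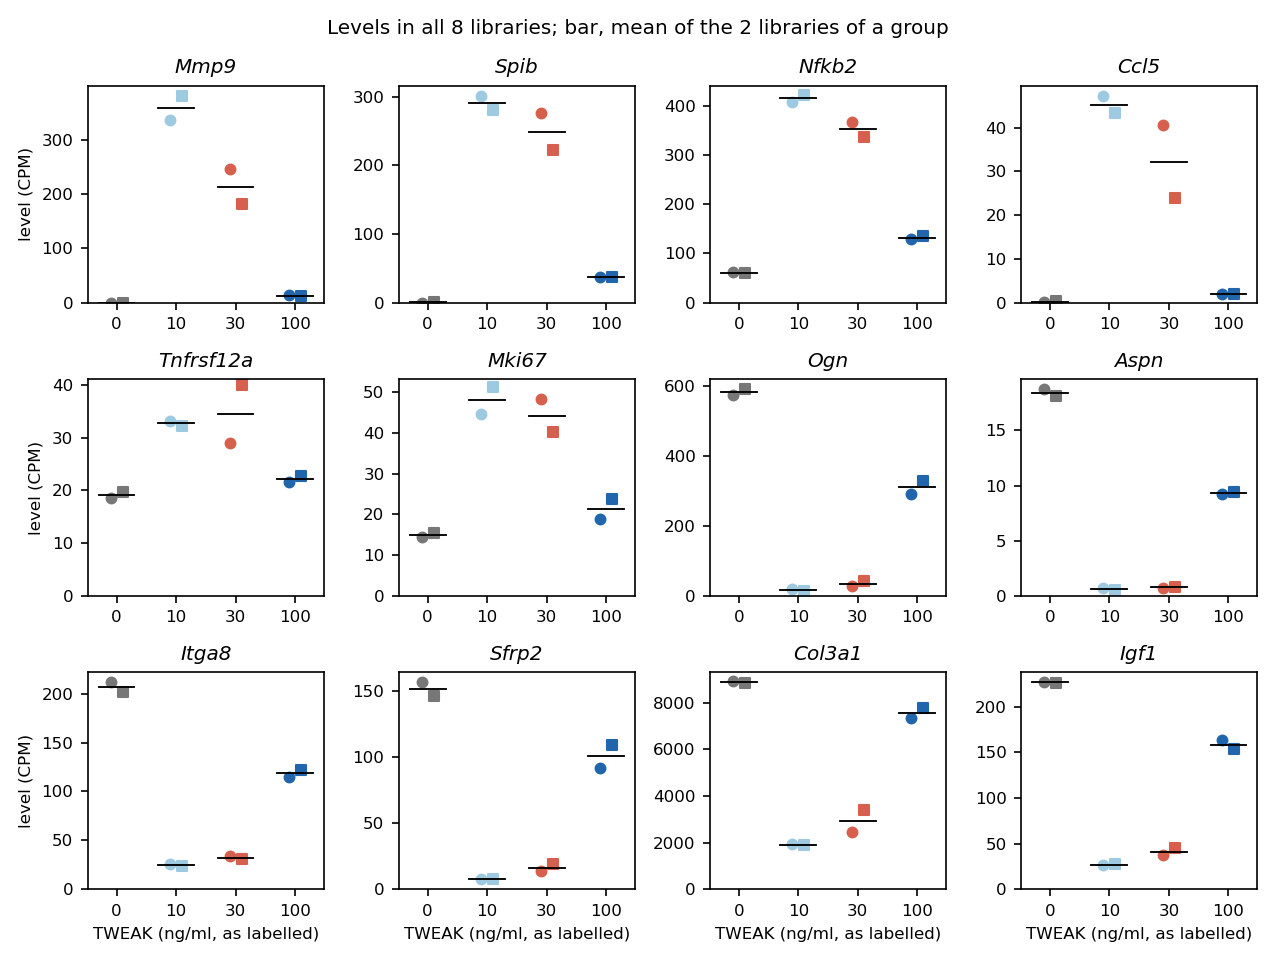
Level (CPM, axes from 0) of 12 genes in all 8 libraries by TWEAK dose as labelled, with circles for replicate 1, squares for replicate 2 and a bar at the mean of a group. At 100 ng/ml the levels of all 12 genes lie between those of untreated cells and those at 30 ng/ml. The 12 genes were picked by hand and do not stand for all genes.

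Exons of Tnfsf12, Bst1, Il4i1, Colq, Il2rg, Csf2rb, Aspn, Pcdhgb1, Plagl1, Acss3, Syn2, Ltbp2, Col3a1, Fn1, Timp3, Pdgfra, Nfkb2, Traf5, Ikbkg, Bid, Cxcl16, Cxcl10, Il34, Il16, Il6ra, Enpp2, Icam1, Prnp, H2-Q4, Cd74, C1s1, Slco2a1, Ptgis, Junb, Mafk, Prelp, Eln, Lama2, Nid2, Spp1, Loxl2, Lox, Mmp12, Adamts7, Itga8, Itga1, Des, Mylk, Bmp4, Bmp5, Sfrp2, Nrg1, Cd34, Ube2c, Mcm7, Ccnd1, Cdkn1a, Ccnd2, Sqstm1, Slc2a1, Shmt2, Adh1, Mt2, Rpl3, mt-Atp6, Slc7a7, Pde5a and Itgam overlap exons of another annotated gene on GRCm38, and since the use of strand in counting is not given, their counts are uncertain. Members of the Serpina3, Ces1, C1s, H2, Mt, Ccl and ribosomal protein families and the protocadherin gamma cluster resemble or share sequence with each other, and reads could be split among them.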

How the data were processed

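RNA was sequenced from primary mouse lung fibroblasts, 2 libraries for each of 4 groups, with groups and replicate numbers from the sample titles. The deposited table holds unnormalized counts, whole numbers per row and library, as its values show. The submitters' processing notes name the mm10 build, STAR and StringTie, without versions or steps. The program that counted reads, the annotation and the use of strand were not given in the sources used here. Counts of genes that overlap or nearly match each other may thus be mixed.

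The table had 55335 rows. Rows without a symbol (3225, between 0.168% and 0.178% of a library's counts) stayed out of library sizes and tests and had a separate fit. There were 80 symbols with several rows, which were kept apart, and 26 that had turned into dates and are not named. Libraries held between 37345575 and 50896445 counts. Intervals and floors cover counting error only.

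The test was edgeR 4.0.16 (R 4.3.3), quasi-likelihood F, on all 8 libraries with 1 mean per group, after filterByExpr and TMM scaling, with 4 residual and 3.77 prior degrees of freedom. P-values were two-sided, adjusted by Benjamini-Hochberg over the 17360 genes tested in each comparison, with a threshold of 0.05. Standard errors are the log2 change over the square root of F, an approximation. Printed CPM values are TMM-scaled. The fit was also run on simulated counts with fewer and smaller changes than those found here, so that run does not cover the largest changes.

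The comparison, the 54 pathway lists, the 9 marker lists and the naming rule were chosen with earlier results of these data known. Lists are described by counts of calls and medians and were not tested as sets. Medians were the same when genes at 0 counts in a group were set at a floor of 3 counts. By rule the text names Tnfsf12 and Tnfrsf12a, the 15 largest rises and falls among called genes with at least 5 CPM and no overlap, and the 8 largest gains and losses in CPM. It also names up to 4 members of each list with the smallest p and up to 2 of the rarer direction, up to 6 differences between doses or between the 2 libraries at 30 ng/ml, and marker genes. Some genes under the rule are left out of the text for length. Positions are those of GENCODE M21 and promoters those of RefSeq, both on GRCm38. Alternatives were DESeq2 1.42.0, limma-voom (limma 3.58.1), other scalings, filters and designs, thinning to the lowest total and leaving out each library.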

Additional observations from a re-analysis of the deposited data

Results flagged for a closer look

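The response at 30 ng/ml differed from that at 100 ng/ml in 2637 genes, by an edgeR test of the difference itself. The 12 genes that the naming rule takes from this comparison are listed with the log2 difference of 30 from 100 ng/ml. Higher at 30 ng/ml were Myh15 (7.66), Bst1 (5.69), Il4i1 (5.67), Colq (5.65), Mmp9 (4.09) and Ccl5 (4.06). Lower at 30 ng/ml were Aspn (-3.56), Peg3 (-3.47), Plagl1 (-3.30), Ogn (-3.16), St8sia2 (-3.10) and Lrp4 (-2.91). Peg3, an imprinted zinc-finger gene, stood at 49.99 and 247 CPM in the untreated libraries, 17.2 and 23.04 CPM at 30 ng/ml and 226 and 218 CPM at 100 ng/ml, and its call against untreated cells (log2 change -2.88 ± 0.62, edgeR adjusted p = 0.01204) was lost without TWEAK30 replicate 1 (adjusted p = 0.0824) or TWEAK30 replicate 2 (0.0507). In the untreated group the 2 libraries of Peg3 lay apart. The responses do not follow the order of the labelled doses, and a mistake in the dose labels was not tested. These directions hold only as far as the labels do.

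Rows of the table without a symbol, which the comparison did not use, also differed: 15 of 341 tested were higher at 30 ng/ml than untreated and 2 were lower (4.99% called, against 23.3% of genes with a symbol). Groups of 2 libraries are too small to test a single library as outlying.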

How the results depend on the processing

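The count of genes changed at 30 ng/ml against untreated (4041) ranged from 2557 to 3913 when 1 library was left out (2557 without untreated replicate 1, 2653 without TWEAK30 replicate 1, 2685 without untreated replicate 2), was 1441 with an absolute log2 change of at least 1, and lay between 3448 (no low-count filter) and 4281 (limma-voom) otherwise. Library totals without TMM gave 4026, of which 58.3% were higher, against 53.9%. Between 30 and 10 ng/ml edgeR called 0, DESeq2 131, a fit of only these groups 5, a fit without both 100 ng/ml libraries 3, and leaving out 1 library 3 to 59. Between 30 and 100 ng/ml the count (2637) was 802 with an absolute log2 change of at least 1, 1393 to 2525 leaving out 1 library and 2115 to 2888 otherwise. Over all pathway lists 393 members rose and 258 fell, or 172 and 124 with an absolute log2 change of at least 1.

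With the replicate number as a block, 3578 genes changed against untreated, 0 against 10 ng/ml and 2231 against 100 ng/ml. The correlation of same-numbered deviations between untreated and 30 ng/ml libraries was 0.0367, and between the other pairs of groups from -0.130 to 0.0047. These correlations cannot tell whether same-numbered libraries share a culture or mouse, which the labels do not give. Of 290 named genes called, none changed direction under any alternative, 255 were called whichever 1 library was left out and 181 under every alternative. At these depths 3 counts are at most 0.0801 CPM, and changes of genes near that level were not detectable. Fits that leave a group with 1 library assume that it varies as the other groups do.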

Other observations

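Some genes had almost no counts without TWEAK. At most 3 counts over both untreated libraries and at least 1 CPM at 30 ng/ml were found in 33 genes, 30 of them called, and the reverse in 1 gene, which was not called. The following were chosen from the 33 after their values were seen. Csf2, the cytokine GM-CSF, stood at 2.38 and 1.82 CPM at 30 ng/ml, Pdgfb, a growth factor for mesenchymal cells, at 4.36 and 2.53 CPM, Pthlh, the parathyroid hormone-related protein, at 1.41 and 1.49 CPM and the surface protein Cd83 at 1.101 and 1.18 CPM. Spic, an Ets-family factor related to Spib, stood at 8.37 and 7.63 CPM, Tnip3, a partner of A20, at 5.35 and 4.32 CPM and Trem2, a lipid receptor of myeloid cells, at 1.67 and 0.803 CPM. At 100 ng/ml, Csf2 stood at 0.176 and 0.175 CPM, Pdgfb at 0.0503 and 0.175 CPM and Spic at 1.41 and 0.875 CPM.

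The 2 libraries at 30 ng/ml differed more than 2-fold in 145 of 11123 genes with at least 5 CPM (1.30%), against 1.09% in the untreated pair. The rule for the widest gaps named Eif3j2 (17.3 and 0 CPM in replicates 1 and 2), Hist2h2aa1 (0.02202 and 17.8), Pcdhga9 (292 and 6.42), Lrrc8d (39.02 and 1.75), Pcdhga4 (0.617 and 9.797) and C1rb (26.6 and 2.36). None of them was called against untreated cells. Pcdhga4, Pcdhga9, Eif3j2, Hist2h2aa1 and C1rb have close copies in the genome or share exons with neighbours, so their counts could be split.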
